A study of Mus musculus with 2 samples.

Results

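Among the 7118 cell barcodes of the RAD21L KO testis library, 234 carried transcripts of undifferentiated spermatogonia, the mitotic germ cells that include the stem cells of the testis. They were chosen by their own transcript counts and were 3.29% of that library (95% interval 2.89% to 3.73%), out of 12533 barcodes in the WT and KO libraries together. A barcode was taken when it had at least 1000 detected genes, at least 3 unique molecular identifiers (UMIs, tags that count single captured RNA molecules) of the markers Zbtb16, Sall4, Ret, Gfra1 and Lin28a summed, and at least 2 UMIs of the germ cell genes Dazl and Ddx4. Barcodes rich in meiotic transcripts (Sycp1, Sycp3 and Hormad1 at 0.15% of UMIs or more) were left out. So were those rich in Sertoli transcripts (Clu, Inha, Sox9, Rhox8, Defb36 and Wfdc10, 0.6% or more) or Leydig transcripts (Cyp17a1, Insl3, Hsd3b1 and Cyp11a1, 0.3% or more). The 234 are called marker-positive barcodes here. These genes chose them, so their levels are a description and support nothing.

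The data are single-cell RNA-seq of dissociated whole testes, captured in droplets on the 10x Chromium system and sequenced on a NovaSeq 6000, with a target of 5000 to 6000 cells per library. One library came from Rad21l+/+ mice (WT, 5415 barcodes, 33096309 UMIs) and the other from Rad21l-/- mice (RAD21L KO, 28001992 UMIs), both 55 days old. RAD21L is a cohesin subunit of meiosis, and all barcodes compared in the KO library carry the same genotype. With 1 library per genotype there was no replicate and no test. Each range in parentheses is a 95% interval that covers counting error only: exact Poisson for levels, exact Clopper-Pearson for shares and exact conditional binomial for ratios. Levels are UMIs of a gene per 1000000 UMIs of a class of barcodes (CPM), and they are compared between classes for 1 gene at a time.

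Undifferentiated spermatogonia lie on the basement membrane of the seminiferous tubule. Stem cells among them self-renew under GDNF, a factor from Sertoli cells that signals through the receptor RET with its co-receptor GFRA1. Progenitors move on when retinoic acid induces STRA8 and the receptor KIT, which mark the step to differentiating spermatogonia, and the same acid later acts with STRA8 and MEIOSIN at entry into meiosis.

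The upstream sequences of Gfra1 and Stra8 are shown because a split of the marker-positive barcodes described below turns on the transcripts of these genes. Both are the 250 bases before the gene's start in RefSeq, build GRCm38.p6, written 5′ to 3′ on the gene's strand. Gfra1 lies on the minus strand (chr19:58455399-58455648) and Stra8 on the plus strand (chr6:34920698-34920947). Capitals mark AGGTCA, the core motif that nuclear receptors such as the retinoic acid receptors bind, on either strand.
Gfra1: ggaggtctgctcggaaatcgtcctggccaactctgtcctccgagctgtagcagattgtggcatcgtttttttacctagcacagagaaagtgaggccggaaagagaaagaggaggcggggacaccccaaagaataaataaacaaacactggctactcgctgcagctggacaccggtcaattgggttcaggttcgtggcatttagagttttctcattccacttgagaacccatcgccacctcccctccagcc
Stra8: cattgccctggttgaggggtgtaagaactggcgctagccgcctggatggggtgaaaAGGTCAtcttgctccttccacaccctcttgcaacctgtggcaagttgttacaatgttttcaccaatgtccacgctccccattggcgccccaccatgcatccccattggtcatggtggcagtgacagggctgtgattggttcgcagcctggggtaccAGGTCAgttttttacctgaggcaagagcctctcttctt
Stra8 held 2 matches, starting 194 and 38 bases before the gene's start, and Gfra1 held 0. Of 32851 promoter windows of the same length, 14% held at least 1 match. CCGGAAG, the core that ETS factors such as ETV5 bind, was searched on both strands as well and was in neither sequence, against 6.91% of all windows. The windows of Dusp6 and Glis3, not shown, were searched too and held 0 matches of either motif. A match is a description of the letters only. The genes and motifs were chosen after the values were seen.

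The filters left 4646 KO barcodes at 1000 genes, 1683 of them with germ transcripts, 252 with the marker minimum, and 234 after the meiotic and somatic limits. The marker minimum decided membership far more than the limits: 622 barcodes failed it alone, 99 of them at exactly 2 marker UMIs, and 45 barcodes were members at exactly 3. At the meiotic limit the nearest member had 0.145% and the nearest barcode outside 0.167%. A marker-positive barcode held between 3 and 27 marker UMIs (median 7), and 79 held at least 10. Total UMIs ranged from 2867 to 22548 with a median of 7927.5, against 4483 in the 1638 other KO barcodes with at least 2 Dazl and Ddx4 UMIs, called other germ barcodes here. Scrublet, a doublet caller, marked 5 of the 234 (2.14%) and 74 of the 1638 (4.52%). Of 14 barcode sequences shared by the libraries, 0 were among the marker-positive barcodes.

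Further KO classes served for comparison. Differentiating-marker barcodes (406) passed the same gene, germ, meiotic and somatic limits, had fewer than 3 marker UMIs and had at least 3 UMIs of Kit, Stra8, Dmrtb1 and Prss50 summed. Prophase-marker barcodes (645) exceeded the meiotic limit. Sertoli-gene barcodes (355) and Leydig-gene barcodes (468) held fewer than 2 Dazl and Ddx4 UMIs and show how much of a germ cell transcript appears in cells that should lack it. Their median depths were 6774 and 7474 UMIs, near that of the marker-positive barcodes.

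The 5 markers chose these barcodes and kept them low in the differentiating-marker class, so only the Sertoli-gene and Leydig-gene levels show how specific each marker was. Zbtb16, a zinc finger repressor needed for stem cell maintenance, was found in 93.2% of marker-positive barcodes at 490 CPM (459 to 522). It was at 67.4 CPM in differentiating-marker and 2.73 CPM in Sertoli-gene barcodes, but at 98.7 CPM in Leydig-gene barcodes, 48.9% of which had a UMI, so Zbtb16 alone does not mark germ cells here. Sall4, a transcription factor of germline and pluripotent cells, was in 82.1% at 228 CPM, against 0.781 and 0.569 CPM in the Sertoli-gene and Leydig-gene barcodes. Lin28a, which encodes an RNA-binding protein that blocks let-7 maturation, was in 55.6% at 127 CPM, against 8.38 CPM in differentiating-marker barcodes. The GDNF receptor genes were found in fewer: Ret in 35.5% (79.2 CPM, 67.1 to 92.9) and Gfra1 in 28.6% (68.3 CPM). In the Sertoli-gene and Leydig-gene barcodes Gfra1 was at 0.390 and 0.854 CPM and Ret at 3.12 and 0 CPM. All 5 markers were present together in 17 barcodes and 11 had UMIs of only 1, of which 7 had Zbtb16 alone. With each barcode thinned to 3000 UMIs, which left out 1 barcode, 67% still had a Zbtb16 UMI, 52.4% Sall4, 29.2% Lin28a, 20.6% Ret and 15.5% Gfra1.

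**Figure D1:**
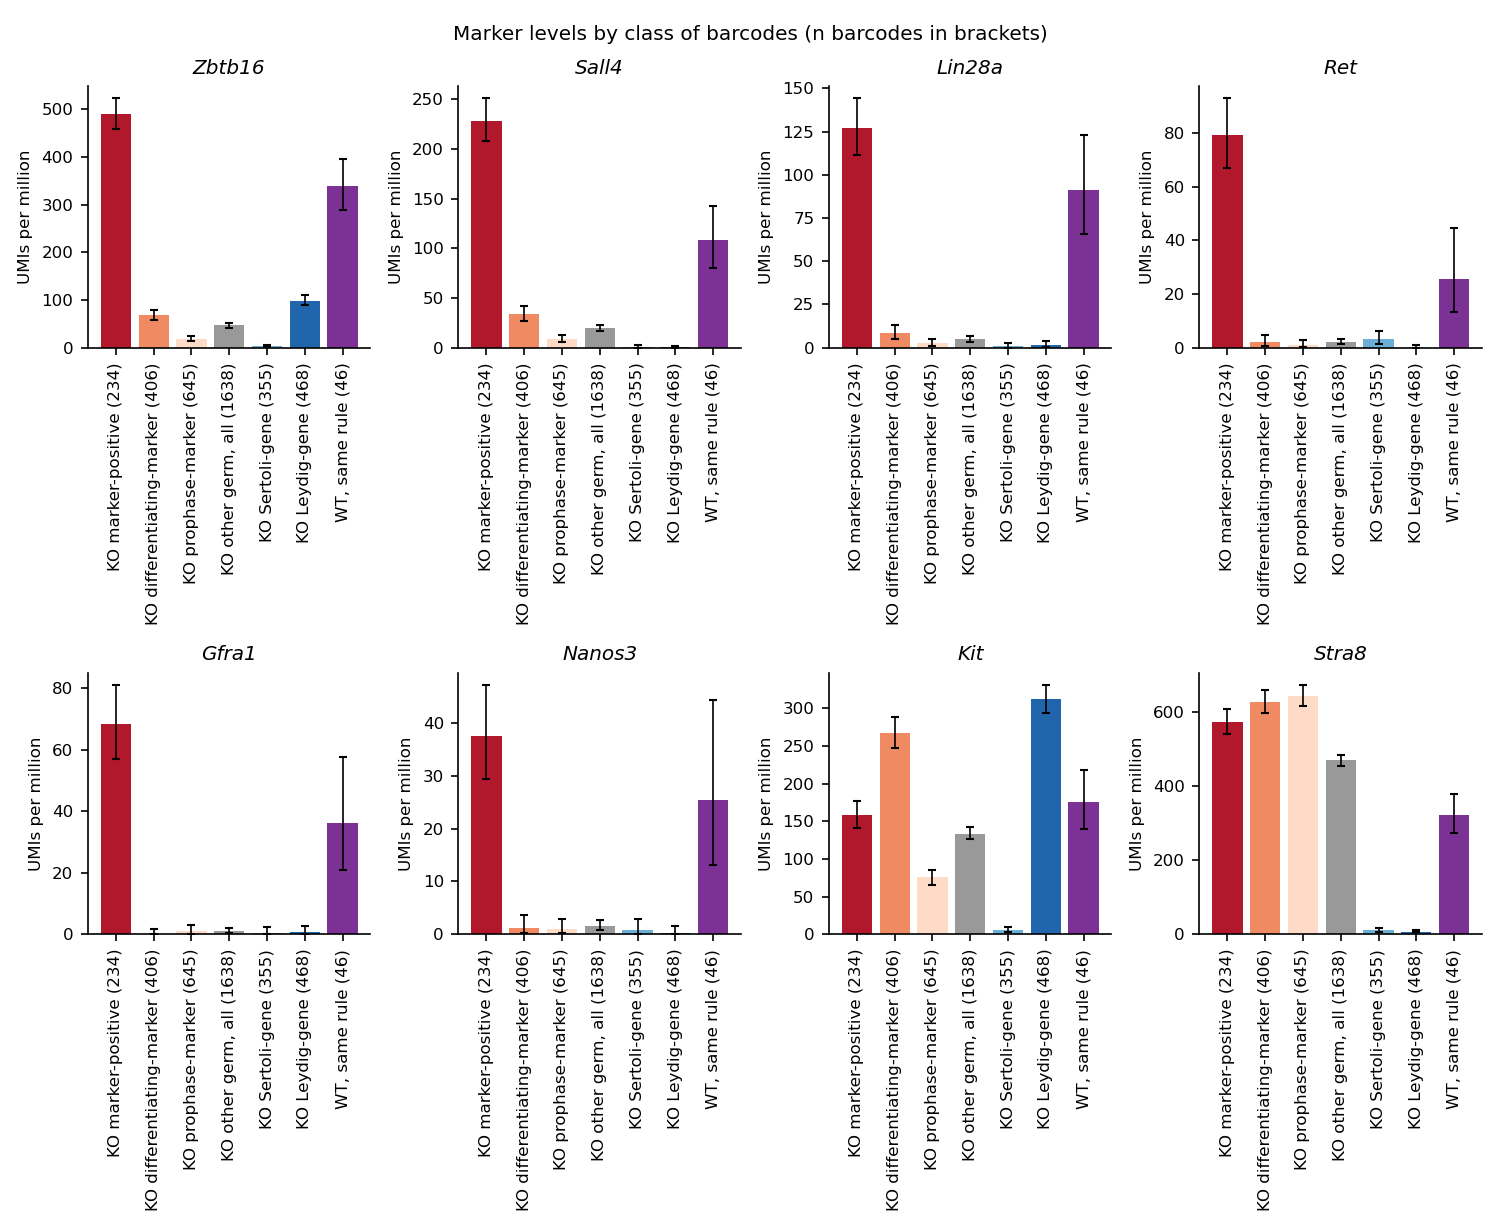
Levels of 8 genes in CPM in 7 classes of barcodes, with exact Poisson 95% intervals as bars. The 5 genes of the rule and Nanos3 were highest in the marker-positive barcodes, Kit was highest in the Leydig-gene barcodes at 312, and Stra8 stood at 575 in the marker-positive and 628 in the differentiating-marker barcodes.

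The label undifferentiated was set against Kit and Stra8, which the rule for the 234 did not use, and it fits only some of them. Both genes helped choose the differentiating-marker barcodes, so their levels in that class are a description. Stra8, the retinoic acid target of the differentiation step, was in 164 barcodes (70.1%) at 575 CPM (542 to 610), close to the 628 CPM of differentiating-marker barcodes. The Sertoli-gene and Leydig-gene barcodes had 10.5 and 7.11 CPM and shares of 7.61% and 5.34%, so this level is far above background. Kit was in 112 barcodes (47.9%) at 158 CPM, but Leydig-gene barcodes held 312 CPM, so Kit alone is a weak sign. A UMI of either gene was in 170 barcodes (72.6%), and 122 (52.1%) had at least 3. Thinned to 3000 UMIs, 61.4% of marker-positive and 75.5% of differentiating-marker barcodes had a Stra8 UMI. Dmrtb1, a regulator of the switch to meiosis, was at 23.5 CPM, against 99.7 CPM in the differentiating-marker barcodes that it helped choose.

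The first comparison set the marker-positive barcodes against the 1638 other germ barcodes over 11838 genes with at least 50 UMIs in both together, leaving out the genes of the rule. A gene is counted as higher or lower at a ratio of 2. Higher were 846 genes (7.15%) and lower 2029 (17.1%), with a median log2 ratio of -0.10 over all genes. The classes held 1918345 and 8009696 UMIs, so genes of the other germ barcodes met the minimum of 50 UMIs at a lower CPM. The balance of the 2 counts thus depends on the minimum. At 20 UMIs 1417 genes were higher and 2468 lower, and at 100 UMIs 559 and 1604. The 12 largest ratios belonged to Nefm, Upp1, Rspo2, Glis3, Nanos3, Foxf1, Kcnc2, Aff3, Large2, Egr4, Cd274 and Ryr2, between 15.2 and 31.6 times.

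Nanos3, which encodes an RNA-binding protein of germ cell maintenance, stood at 37.5 CPM against 1.62 CPM in other germ barcodes, 23.1 times higher (12.7 to 45.5). It was found in 49 marker-positive barcodes, while the Sertoli-gene and Leydig-gene barcodes were at 0.781 and 0.285 CPM. Glis3, a Krüppel-like zinc finger factor, stood at 74.0 against 3.00 CPM, 24.7 times higher (16.0 to 39.8). Egr4, an early growth response factor, stood at 72.5 against 4.37 CPM, 16.6 times higher (11.4 to 24.8). Signalling and surface genes were in the same set: Rspo2, a secreted amplifier of WNT signals, at 28.1 against 1.12 CPM, Cd274, the immune checkpoint ligand PD-L1, at 27.1 against 1.75 CPM, and the calcium release channel gene Ryr2 at 47.4 against 3.12 CPM. Nefm, a neurofilament gene, had the largest ratio, 31.6 (18.7 to 57.0), with 121 UMIs in 44 barcodes, 18 of them in a single barcode. Without that barcode its level was 53.9 CPM in place of 63.1.

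The 12 smallest ratios were those of Fsip2, Meiob, Sdk1, Tex13d, Meiosin, Meioc, H2bw2, H2bc1, Rsph1, Spdya, C1qc and Rad51ap2. Meiosin and Meioc act at entry into meiosis: Meioc stood at 24.5 CPM in marker-positive and 370 CPM in other germ barcodes, a ratio of 0.0662 (0.0486 to 0.0883), and Meiosin at 6.78 and 105 CPM. H2bc1, a testis histone H2B gene, stood at 16.7 and 237 CPM. Meiob, a single-strand DNA binding partner in meiotic recombination, had 3 UMIs in the 234 barcodes and 316 in the others. C1qc, a complement gene of macrophages, came from 56 of the 1638 barcodes.

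Other germ barcodes also carried more somatic transcripts. Of the Sertoli marker list, 12 of 13 compared genes were at least 2 times lower in marker-positive barcodes and its summed level was 780 against 2312 CPM. The Leydig list was at 342 against 921 CPM with 6 of 8 genes lower, and the macrophage list at 39.6 against 223 CPM with 8 of 9 lower. When the other germ barcodes were limited to the 1267 with at least 1000 genes and under the same somatic limits, 886 genes were higher and 1277 lower.

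The second comparison set the marker-positive barcodes against the 406 differentiating-marker barcodes, whose Sertoli (826 CPM) and Leydig (307 CPM) list sums were close to their own. The peritubular list was close as well, at 92.1 CPM against 84.4 CPM in the marker-positive barcodes. The macrophage list was not, at 111 against 39.6 CPM, and the stromal list was at 108 against 79.2 CPM. Of 9265 genes compared, 570 were at least 2 times higher (6.15%) and 444 lower (4.79%), with a median of -0.06 over all genes. The largest ratios were again led by Glis3, Nefm, Kcnc2, Large2, Foxf1, Nanos3 and Aff3, followed by Pygl, Sox13, Fbxo32, Upp1 and Rspo2. Both comparisons share the marker-positive barcodes, so this is no second line of evidence.

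Nanos3 had 72 UMIs in the 234 and 3 in the 406 barcodes, a ratio of 29.9 (9.82 to 148). Aff3, which encodes a transcription elongation factor of the AFF family, stood at 69.9 and 2.51 CPM, a ratio of 27.8 (12.4 to 77.1). Kcnc2, a voltage-gated potassium channel gene, had 114 UMIs against 1, a log2 ratio of 7.15 (4.64 to 12.46) on the UMIs as counted. The ranking used 5.56 for Kcnc2, with the 1 UMI set to 3. Fbxo32, a ubiquitin ligase subunit gene, stood at 63.1 and 2.51 CPM. The glycogen phosphorylase gene Pygl and the SOX family gene Sox13 stood at 33.9 and 32.8 CPM in the marker-positive and 1.26 and 0.838 CPM in the differentiating-marker barcodes.

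The smallest ratios of this comparison were those of Impg2, Meioc, H2bc1, H2bw2, E2f2, Ctcfl, Zfp809, Esx1, Meiosin, Sgcb, H2ac1 and Prdm9. The value of Impg2 is that of 1 barcode, which held 69 of its 70 UMIs in the 406; without it the level there was 0.420 CPM against 0.521 CPM. Meioc stood at 24.5 and 273 CPM, and the testis histone gene H2ac1 at 163 and 848 CPM, a ratio of 0.192 (0.170 to 0.217). Prdm9, which places meiotic DNA breaks, stood at 14.1 and 72.5 CPM. Ctcfl, the germline paralogue of CTCF, stood at 6.26 and 40.2 CPM. The X-linked homeobox gene Esx1 stood at 20.9 and 128 CPM.

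**Figure D2:**
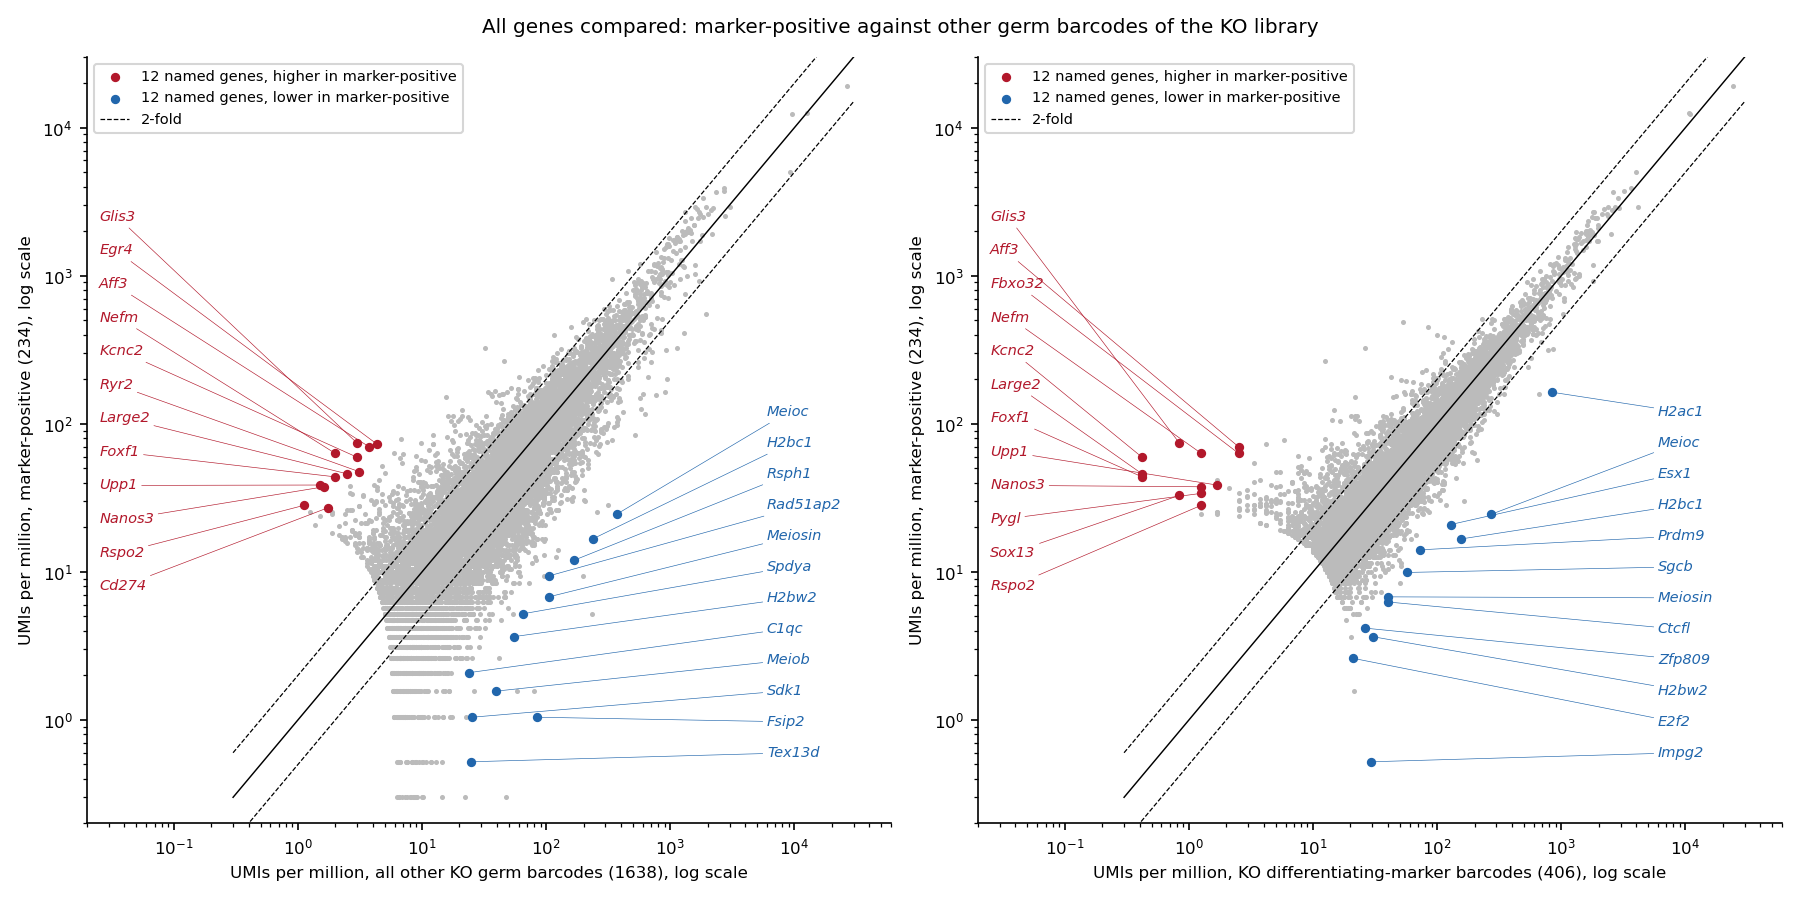
Each grey point is 1 compared gene, at its level in the marker-positive barcodes (y axis) and in the comparison class (x axis), in CPM on log axes, with levels under 0.3 drawn at 0.3. Red and blue points are the 12 named genes in each direction, and dashed lines mark a ratio of 2: the red genes lie below 5 CPM in both comparison classes.

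Gene lists of known roles are described by how many of their compared genes passed a ratio of 2 and by their median log2 ratio. A gene had to have 50 UMIs in both classes together, so low genes entered only where 1 class was high, and the counts are descriptions, to be read against the 7.15% of all genes higher and 17.1% lower than in other germ barcodes, and the 6.15% higher and 4.79% lower than in differentiating-marker barcodes. Of the stem cell list, 12 of 26 genes were compared with other germ barcodes, 6 were higher and 0 lower, with a median of 0.89: its share of higher genes was above that of all genes. Against differentiating-marker barcodes, 6 of 11 were higher and the median was 1.19. Glis3, Egr4 and Pou3f1 led the first comparison, and Glis3, Egr4 and Etv5 the second.

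Id4 and Etv5, factors tied to stem cell self-renewal, were not limited to germ barcodes. Id4 was at 48.0 CPM in marker-positive barcodes, above the 13.8 CPM of differentiating-marker barcodes but below the 117 CPM of Sertoli-gene barcodes. Etv5, an ETS factor induced by GDNF and FGF, was at 40.1 CPM, with 6.70 CPM in differentiating-marker, 50.7 in Sertoli-gene and 61.5 in Leydig-gene barcodes. Against differentiating-marker barcodes, whose Sertoli list sum was close, the ratio was 3.47 for Id4 (2.31 to 5.33) and 5.99 for Etv5 (3.46 to 11).

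Scarcer stem cell genes were at low levels in other germ barcodes. Bcl6b had 32 UMIs in the 234 (16.7 CPM) and was at 1.5 CPM in other germ barcodes. The homeobox gene Lhx1 had 19 UMIs, from 6.41% of the barcodes, and the T-box gene Eomes 24, from 6.84%, with 0.624 and 0.375 CPM in other germ barcodes. The forkhead gene Foxc2 was at 18.2 CPM, against 0.874 CPM in other germ barcodes, and Tcl1, a coactivator of AKT, at 17.2 against 1.25 CPM. Nanos2 had 5 UMIs, Pax7 8 and Thy1 1, too few to describe, and T had 0 of 1918345 UMIs, which allows up to 1.56 CPM.

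Of the progenitor list, 12 of 14 genes were compared with other germ barcodes, 8 were higher and 0 lower, and the median of 1.5 was the largest of the germ cell lists. Sohlh1, a basic helix-loop-helix factor of spermatogonial differentiation, stood at 141 CPM against 39.2 in other germ and 80.0 in differentiating-marker barcodes. Foxo1, a forkhead factor of stem cell maintenance, stood at 170, 59.4 and 78.3 CPM in the same order, and the SOX factor gene Sox3 at 74.5, 23.2 and 41.0 CPM. Uchl1, a deubiquitinase gene long used as a spermatogonial marker, was 2.77 times the level in other germ barcodes (2.61 to 2.94). Upp1, a uridine phosphorylase gene, was at 38.6 CPM against 1.5 and 1.68. Sdc4, a syndecan gene, was 9.29 times its level in differentiating-marker barcodes, but its level in Sertoli-gene barcodes was higher still at 1066 CPM. Neurog3, a classical progenitor factor, had 7 UMIs.

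Of the GDNF and FGF pathway list, 19 of 28 genes were compared with other germ barcodes, of which 7 were higher and 1 lower (median 0.70), and 15 with differentiating-marker barcodes, of which 6 were higher and 1 lower (median 0.87). Dusp6, a phosphatase that dampens ERK, stood at 40.7 CPM against 3.35 in differentiating-marker barcodes, a ratio of 12.1 (5.86 to 29.1), although Sertoli-gene barcodes held 82.4 CPM. Spry4, another feedback inhibitor, was at 13.6 CPM against 3.00 in other germ barcodes. Fgfr3 was the gene lower in both comparisons, with log2 ratios of -1.19 (-2.18 to -0.33) and -1.46 (-2.52 to -0.50). Gdnf itself, the ligand made by Sertoli cells, had 1 UMI in the marker-positive barcodes and was at 15.6 CPM in Sertoli-gene barcodes.

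Of 11 genes in the differentiating list, 10 were compared with other germ barcodes, 2 were higher and 5 lower. Ccnd2, which encodes the G1 cyclin D2, went against the list's name: it stood at 327 CPM (302 to 353), 10.1 times the 32.3 CPM of other germ barcodes (8.73 to 11.7) and 12.4 times the 26.4 CPM of differentiating-marker barcodes (9.55 to 16.3). Leydig-gene barcodes held 125 CPM. Ccnd1, the sister cyclin gene, was at 105 CPM, lower than the 238 CPM of differentiating-marker barcodes. Tex101, Ly6k and Rhox13, genes of later spermatogonia and spermatocytes, had log2 ratios of -1.37, -2.07 and -1.55 against differentiating-marker barcodes. Dnmt3b, a DNA methyltransferase gene, was 2.11 times the level in other germ barcodes and 1.02 times that in differentiating-marker barcodes (0.847 to 1.22).

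Of 20 retinoid pathway genes, 13 were compared with other germ barcodes, 0 were higher and 5 lower (median -0.65). The 5 were Rdh11, Aldh1a1, Aldh1a2, Rdh10 and Cyp26b1, enzymes that make or break down retinoic acid. Aldh1a1 was at 3206 CPM in Leydig-gene barcodes and 452 in Sertoli-gene barcodes, and the somatic transcripts given above move with this list; their part was not tested. With the 1267 barcodes under the somatic limits the median was -0.11, and against differentiating-marker barcodes 0 of 9 genes passed in either direction. Crabp1, a retinoic acid binding protein gene, stood at 236 CPM against 157 and 325.

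Among genes of cell division, the G2/M list had a median of -0.04 against other germ barcodes and -0.48 against differentiating-marker barcodes, with 2 of 20 genes (Nusap1 and Plk1) lower in the latter and 2 (Bub1b and Ccnb1) higher in the former. Mki67, the proliferation marker Ki-67, was at 678 CPM in marker-positive barcodes, 706 in other germ and 1047 in differentiating-marker barcodes. A Mki67 UMI was in 72.2% of marker-positive barcodes, and in 60.1% against 83.2% of differentiating-marker barcodes after thinning. Besides Ccnd2, the regulators Cdkn1c and Cdkn1b, which encode the inhibitors p57 and p27, were 6.15 times (3.68 to 10.9) and 4.98 times (2.61 to 10.3) their levels in differentiating-marker barcodes, and Cdk4 was 2.39 times its level there. Cdkn2c, the gene of the inhibitor p18, was at 2.61 CPM against 22.7 in other germ barcodes.

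The piRNA list, whose products silence transposons in the germline, had 5 of 17 genes higher and 0 lower than in other germ barcodes (median 0.47), and 4 of 16 higher and 0 lower than in differentiating-marker barcodes (median 0.41). Gtsf1, a cofactor of PIWI proteins, stood at 103 CPM against 34.8 in differentiating-marker barcodes, 2.95 times higher (2.27 to 3.87). Tdrd5 and Asz1, genes of the germ granule, were 2.22 and 2.13 times higher. Morc1, a gene of transposon repression from the DNA methylation list, stood at 73.5 CPM against 12.2 in other germ and 13.8 in differentiating-marker barcodes. The meiotic prophase list had 0 of 24 genes higher and 11 lower than in other germ barcodes (median -0.96); since 3 prophase genes were in the rule, this follows in part from the choice of barcodes. In the cohesin list 0 of 17 genes were higher and 3 lower than in other germ barcodes, namely Ctcfl, Rec8 and Stag3. The share lower was near the 17.1% of all genes, so the list did not stand out. Rad21, the mitotic kleisin gene, was at 378 against 208 CPM.

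**Figure D3:**
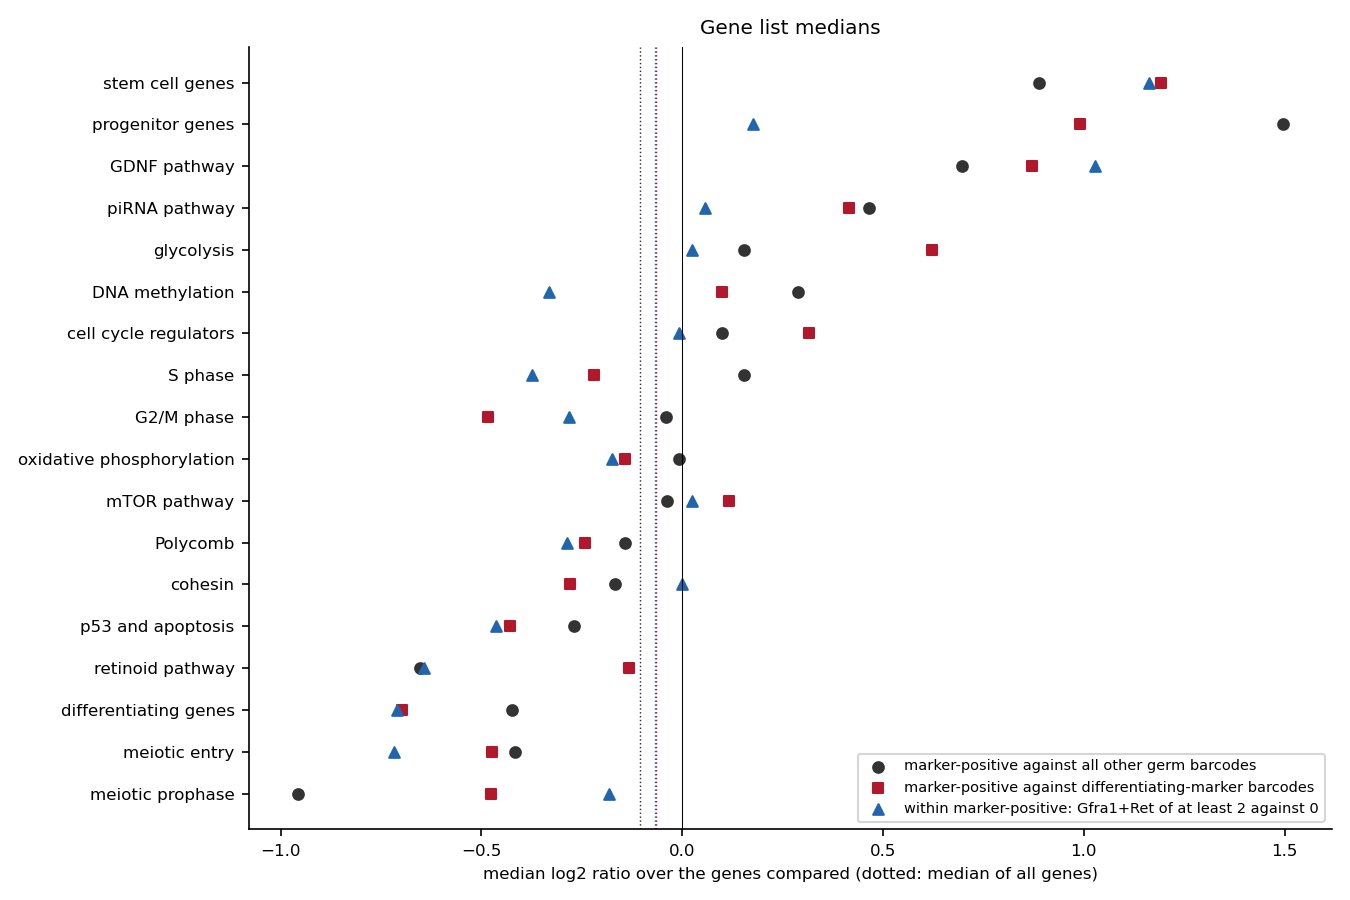
Median log2 ratio of 18 gene lists over the genes compared, for 3 comparisons, with dotted lines at the median of all genes. Stem cell, progenitor and GDNF pathway genes lie to the right of 0 in all 3, progenitor genes at 1.5 against other germ barcodes but 0.18 within the marker-positive barcodes.

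The third comparison looked within the 234. The GDNF receptor transcripts split them: 63 had at least 2 UMIs of Gfra1 and Ret summed, 40 had 1 and 131 had 0. These groups were cut from a count, so they are ranges and not cell types, and 40 barcodes lay at the cut. Median depths were 6669 UMIs in the first and 8446 in the last, so the receptor-positive barcodes were the shallower. Of 5987 genes compared between those with at least 2 and those with 0, 216 were at least 2 times higher (3.61%) and 274 lower (4.58%). Sertoli list sums were 839 and 770 CPM and Leydig list sums 261 and 393 CPM. Stromal list sums were 135 and 47.5 CPM and peritubular list sums 121 and 64.3 CPM, both higher in the receptor-positive barcodes. The part of somatic transcripts in this split was not tested.

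Kit and Stra8 were lowest where the receptors were highest. Of the 63 receptor-positive barcodes 36 had 0 UMIs of Kit and Stra8 and 6 had at least 3, whereas of the 131 receptor-negative barcodes 13 had 0 and 98 had at least 3. Stra8 stood at 108 CPM in the first and 771 CPM in the last, with 540 CPM in the 40 between, and its share after thinning was 22.2% and 76.2%. Kit stood at 30.9, 100 and 225 CPM in the same order. The receptor-negative barcodes were nearer to the differentiating-marker barcodes in Kit and Stra8, which helped choose that class, so this likeness is a description. Their Zbtb16 (375 CPM), Sall4 (236 CPM) and Lin28a (104 CPM) levels were far above that class, which was kept low in these markers. The receptor-negative barcodes had to reach 3 UMIs on these 3 markers alone.

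**Figure D4:**
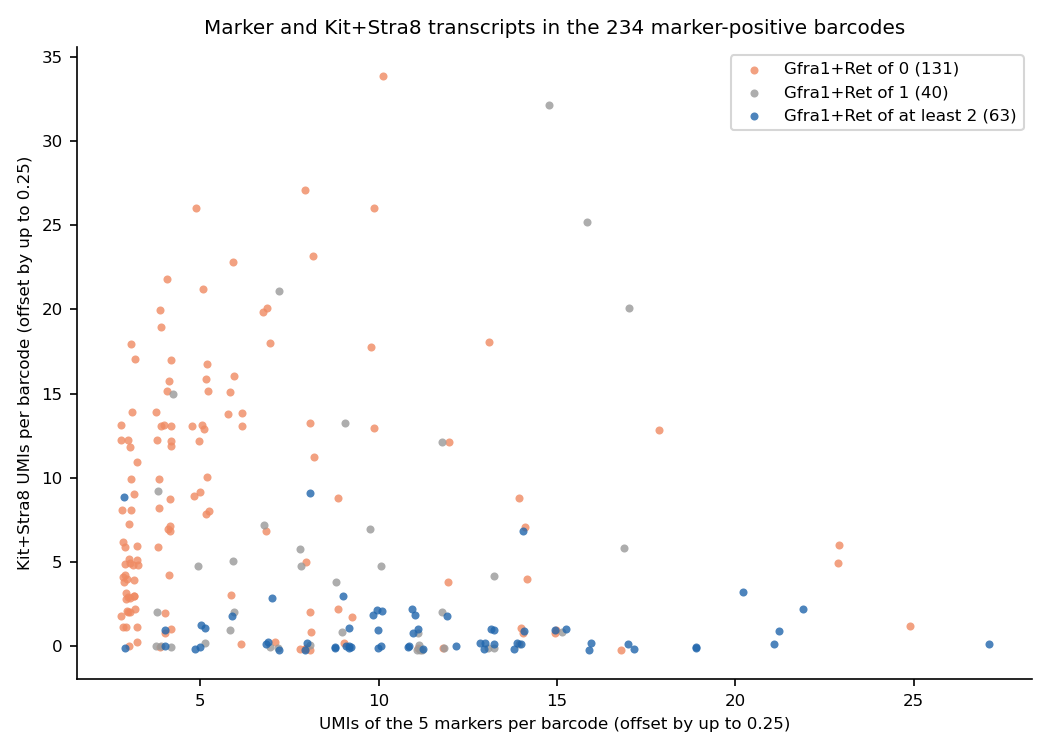
Each point is 1 of the 234 marker-positive barcodes, at its UMIs of the 5 markers (x axis) and of Kit and Stra8 summed (y axis), moved by a small random offset and coloured by Gfra1 and Ret UMIs. Receptor-positive barcodes (blue) lie along the bottom, 36 of 63 at 0, and receptor-negative ones (orange) reach 34.

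Stem cell genes were higher with the receptors: 6 of 11 compared were at least 2 times higher in the receptor-positive barcodes and 0 lower, with a median of 1.16 against -0.07 for all genes. List counts of this split are to be read against 3.61% of all genes higher and 4.58% lower. Id4 stood at 108 CPM against 20.3, a ratio of 5.34 (3.19 to 9.19), and Etv5 at 99.4 against 15.8, a ratio of 6.27 (3.56 to 11.5). The scarcer genes Lhx1, Tcl1, Eomes and Foxc2 were under the minimum of 50 UMIs and not among the 11 compared. Their counts are a description: Lhx1 had 17 UMIs against 0, Tcl1 24 against 0, Eomes 21 against 2 and Foxc2 22 against 2. The GDNF pathway list had 6 of 12 genes higher and 0 lower (median 1.03), with Dusp6 at 104 against 15.8 CPM. Spry4 stood at 50.8 against 0 CPM, but it was under the minimum of 50 UMIs and not among the 12 compared.

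Progenitor genes were divided. Nanos3 was higher in receptor-positive barcodes (66.3 against 24.7 CPM), while Upp1 was lower (19.9 against 41.4 CPM) and Sohlh1 stood at 88.4 against 145 CPM. Of 10 compared, 3 were higher and 1 lower, where 3.61% of all genes were higher and 4.58% lower, with a median of 0.18. Ccnd2 was highest in the receptor-positive barcodes, at 537 CPM against 452 in those with 1 UMI and 207 in those with 0. Foxo1 (197 and 151 CPM) differed little between the ends. Sall4 stood at 197 and 236 CPM, but the rule used it, so its levels here are a description.

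The largest ratios in favour of the receptor-positive barcodes were those of Nefm, Kcnc2, Pdzd2, Amot, Ptpn13, Smoc2, Pygl and Med14. Nefm stood at 230 against 4.40 CPM and remained at 193 CPM without its richest barcode. Kcnc2, in 36 of the 63 barcodes, stood at 192 against 8.81 CPM, a ratio of 21.8 (11.3 to 47.1). Amot, the gene of the Hippo pathway scaffold angiomotin, stood at 88.4 against 8.81 CPM, and Smoc2, which encodes a matrix protein that binds calcium, at 115 against 13.2 CPM. Over all KO barcodes Amot, Smoc2, Pdzd2 and Ptpn13 were at 25.2, 22.4, 55.4 and 76.3 CPM, above their receptor-negative levels. They were thus not limited to the receptor-positive barcodes. Kcnc2 and Pygl were below their receptor-negative levels, at 6.18 and 9.61 CPM. Nipbl, the cohesin loader gene, was 3.10 times higher (2.54 to 3.79), at 499 against 161 CPM.

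The smallest ratios were those of Grb10, Loxl2, Kcnd2, Crybg3, Zfp652, Zswim5, Rnf19b and Plxnd1. Grb10, an imprinted gene for an adaptor that dampens insulin signalling, had 4 UMIs in 63 barcodes and 170 in 131, or 8.84 against 150 CPM (ratio 0.0590, 0.0159 to 0.154). It was at 102 CPM in differentiating-marker barcodes. Crabp1 stood at 75.1 against 328 CPM and Dnmt3b at 44.2 against 144 CPM, a ratio of 0.308 (0.183 to 0.491). Cdk6, a G1 kinase gene, stood at 26.5 against 90.7 CPM and Mki67 at 493 against 748 CPM. A Mki67 UMI was in 39.7% of thinned receptor-positive and 65.4% of thinned receptor-negative barcodes.

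**Figure D5:**
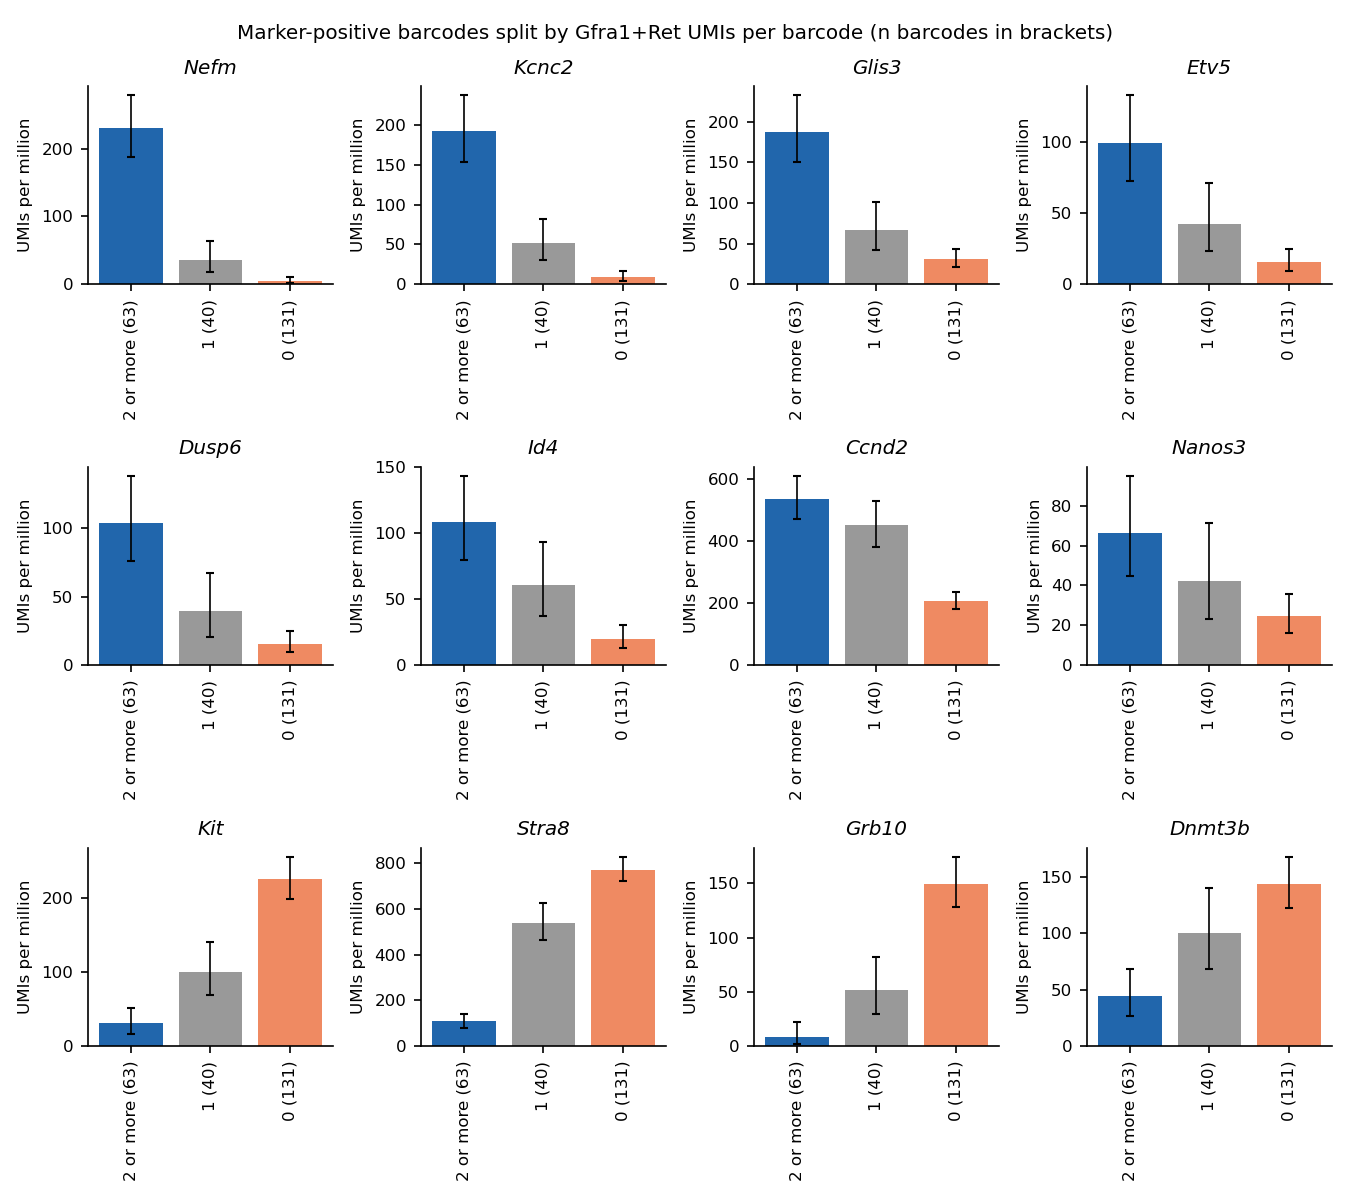
Levels of 12 genes in CPM in marker-positive barcodes with at least 2, 1 or 0 UMIs of Gfra1 and Ret, with exact Poisson 95% intervals. From Nefm to Nanos3 the level is lower from group to group, for example Ccnd2 at 537, 452 and 207, and from Kit to Dnmt3b it is higher, for example Stra8 at 108, 540 and 771.

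A split by Kit and Stra8, chosen after the values were seen, gave the reverse picture on overlapping barcodes. Of 5932 genes compared between the 122 with at least 3 UMIs and the 64 with 0, 313 were at least 2 times higher (5.28%) and 181 lower (3.05%). Glis3 stood at 16.8 CPM in the 122 and 172 CPM in the 64, and Dusp6 at 13.3 and 125 CPM. Eef2k, the kinase gene of elongation factor 2, and the histone gene H3f4 stood at 87.5 and 91.0 CPM in the 122 against 6.80 and 9.06 CPM in the 64. Tet3, a gene of DNA demethylation, was higher with Dnmt3b, at log2 ratios of 1.49 (0.88 to 2.15) and 2.04 (1.30 to 2.88).

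The same rule in the WT library found 46 barcodes, 0.849% of 5415 (0.623% to 1.13%), or 2.52% of WT germ barcodes (1.85% to 3.35%). In the KO library the 234 were 12.5% of 1872 germ barcodes (11% to 14.1%). Shares of a library depend on which other cells it holds, and with 1 library each the difference has no replicate check. Of the 46 barcodes' UMIs, 24372 CPM were of spermatid genes such as Prm1, against 16.7 in the KO barcodes; their part in the differences below was not tested. Zbtb16 was at 340 CPM in the 46, Sall4 at 108, Lin28a at 91.2, Gfra1 at 36.1 and Ret at 25.5 CPM, each below the KO level. Stra8 (323 CPM) and Ccnd2 (138 CPM) were lower than in KO as well, Kit (176 CPM) was near it, and Dmrtb1 (257 CPM) was above it. Rad21l, the gene knocked out in the KO mice, had 19 UMIs in the 234 KO barcodes (9.90 CPM, in 7.69%) and 4 UMIs in the 46 WT barcodes (8.49 CPM). The form of the mutation is not given in the sources used here, and 3′ tags outside an altered stretch would check nothing about the genotype.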

How the data were processed

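The deposited matrices hold UMI counts per gene and barcode of 1 WT and 1 RAD21L KO library. They were made by the authors with Cell Ranger 6.1.2 and Seurat 4.3 on GRCm39, per the submitters' processing notes; the rule for cell calling is not given in the sources used here. Each matrix lists 41459 genes.

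Barcodes were classed by UMI sums (Python 3.11.15, SciPy 1.17.1). UMIs were summed per class and scaled to 1000000. Genes with at least 50 UMIs in both classes together were compared, with sums under 3 set to 3. Doublets called with Scrublet (Scanpy 1.11.5, expected rate 5%) were kept in the values and left out as an alternative. Thinning drew 3000 UMIs per barcode. Named genes are those of the rule, of the stem cell, progenitor, differentiating, GDNF and retinoid lists, the 12 largest and 12 smallest ratios per comparison (8 within the marker-positive barcodes, at least 30 UMIs) and the extremes of other lists. Predicted, mitochondrial, ribosomal and haemoglobin genes were not named. Genes named besides these were chosen after their values were seen. Members and lists were chosen with earlier results of these data known. The steps were tested on counts simulated from class totals with counting error only. Against other germ barcodes, 99 of 100 genes set 4 times apart passed a ratio of 2, and 55 of 11653 unchanged genes did. Against differentiating-marker barcodes these were 97 of 100 and 15 of 9067, and 90 of 100 genes set 8 times apart passed. Spread between barcodes and the choice of members were not simulated.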

Additional observations from a re-analysis of the deposited data

How the results depend on the processing

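Changing how barcodes were chosen (markers, depth, meiotic and somatic limits, doublets) left the 234 barcodes between 156 (Zbtb16 left out of the sum, an alternative chosen after seeing the data) and 333 (2 marker UMIs) and moved 1 count by over 1.5 times: with 2 marker UMIs, 272 genes were lower than in differentiating-marker barcodes. With that setting Impg2 turned to a log2 ratio of 4.05, since the 1 barcode with its UMIs became a member. This was the only sign change among 947 values of 48 gene comparisons with the other germ and differentiating-marker barcodes.

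Counts followed the threshold and the filter. At a ratio of 1.5, 2021 genes were higher and 3396 lower than in other germ barcodes, and 1242 and 1421 than in differentiating-marker barcodes. At a ratio of 3 these were 297, 920, 229 and 85. With at least 20 UMIs, 1417 were higher than in other germ barcodes, and 1106 higher and 689 lower than in differentiating-marker barcodes. With at least 100 UMIs these were 559, 283 and 283, and without a filter 9273, 2151 and 961. The 9273 is in part fixed by the floor. A sum of 3 UMIs is 1.56 CPM in marker-positive but 0.375 CPM in other germ barcodes. Genes with sums of 3 or fewer in both classes were therefore counted as higher. Taking off 10% of the library profile as free RNA gave 703 lower than in differentiating-marker barcodes, and thinning gave 288 higher. Limiting the other germ barcodes by depth and somatic limits gave 1277 lower (chosen after seeing the data). Within the marker-positive barcodes, a split at 1 UMI of Gfra1 and Ret gave 178 lower, and thinning gave 87 higher and 110 lower. Setting the median gene to no difference gave 1021 higher and 1770 lower than in other germ barcodes, against 846 and 2029.

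The stem cell list median ranged from 0.60 to 2.48 against other germ barcodes and from 1.07 to 2.06 against differentiating-marker barcodes, and the progenitor list from 1.38 to 1.61 and from 0.71 to 1.06. Over these alternatives the median of all genes itself ranged from -0.14 to 0.48 and from -0.09 to 0.32. The ends of the list ranges are therefore not all set against the same background. The median of the differentiating list against other germ barcodes ranged from -1.06 to 0.02. Within the marker-positive barcodes the progenitor list median was -0.52 to 0.13 in the 2 alternatives, against 0.18. No paired analysis was possible because each genotype has 1 library. Depth limits statements on genes under about 20 UMIs, among them Nanos2, Pax7, Neurog3, Thy1 and Rad21l.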

Other observations

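Ribosomal protein genes took 12.2% of the UMIs of marker-positive barcodes, against 10.4% in differentiating-marker, 8.5% in other germ and 4.45% in Sertoli-gene barcodes. Within the 234 the share was 13.3% with at least 2 UMIs of Gfra1 and Ret and 11.6% with 0. X-linked genes, matched by symbol, took 2.27% of UMIs in marker-positive barcodes, 2.57% in differentiating-marker and 3.05% in prophase-marker barcodes, and 4.68% in Sertoli-gene barcodes. Of 477 X-linked genes compared with other germ barcodes, 29 were at least 2 times higher and 164 lower (median log2 ratio -0.53). Of 11187 autosomal genes 787 were higher and 1837 lower (median -0.09). Of 346 X-linked genes compared with differentiating-marker barcodes, 24 were higher and 34 lower (median -0.18). Of 8836 autosomal genes 535 were higher and 405 lower (median -0.06). Other germ barcodes held more Sertoli transcripts, as given above, and the part of these in the X-linked counts was not tested.

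Genes of sugar metabolism differed one by one. Against differentiating-marker barcodes 3 of 11 glycolysis genes were higher and 1 lower (median 0.62), where 6.15% of all genes were higher and 4.79% lower. Pdk1, a kinase gene that holds pyruvate out of the mitochondrion, stood at 58.9 CPM against 13.8, 4.26 times higher (2.87 to 6.49), and Pkm, a pyruvate kinase gene, at 193 against 56.5 CPM. Pgk1, an X-linked phosphoglycerate kinase gene, was lower, at 21.9 against 45.2 CPM. Within the marker-positive barcodes Pdk1 stood at 106 CPM with at least 2 UMIs of Gfra1 and Ret and 34.3 CPM with 0. Of 31 oxidative phosphorylation genes 0 were higher and 1 lower than in differentiating-marker barcodes (median -0.14).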
